A study of Mus musculus with 2 samples.

Results

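Primary granule genes of myeloid progenitors were followed on both arrays of this series, using the 8 genes Mpo, Elane, Prtn3, Ctsg, Ctsc, Srgn, Lyz2 and Serpinb1a. They were found by name: every probe set whose platform annotation gives exactly 1 gene symbol, and that symbol is one of these genes. This gave 11 probe sets of the 45037 on the array. Of the genes, 6 had 1 probe set each, Ctsc had 3 and Serpinb1a had 2. The cells were mouse bone marrow cells of wild-type C57BL6J animals, sorted as negative for lineage antigens and Flt3, positive for Sca-1 and high for c-Kit, which is a fraction rich in blood stem cells. One sample had been transduced with GFP as the control and the other with Satb1, a gene for a chromatin-organising protein that binds AT-rich DNA. The sources used here do not give age, vector, time after transduction or the number of animals behind each RNA. There was 1 array per group, so no difference below has a replicate, a standard error or a p-value.

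Primary granules, also called azurophil granules, are the first granules a developing neutrophil or monocyte makes. Their genes are switched on in granulocyte and monocyte progenitors, and the proteins are stored in an acidic, lysosome-like compartment for release or for digestion of swallowed microbes. Myeloperoxidase makes hypochlorous acid from hydrogen peroxide and chloride. The serine proteases elastase, proteinase 3 and cathepsin G are made inactive, trimmed to their active form by cathepsin C, held on the proteoglycan serglycin, and checked in the cytosol by the serpin that Serpinb1a encodes.

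The label of the cells and that of the transduced gene were checked first. The values are MAS5 intensities, a linear brightness per probe set. Intensities under a floor of 61.7, the median over both arrays together, were raised to it before log2 differences were taken, always as Satb1 minus GFP. Intensities are given in the order GFP, then Satb1. Cd34 (8563 and 8197) and Kit (3293 and 3388) were measured at like intensity on both, and so was Flt3 RNA (1390 and 1334), although Flt3 protein was selected against. Ly6a, the gene of Sca-1, was not analysed here. Of 5 Satb1 probe sets, 3 exceeded the floor on each array, with log2 differences from -0.81 to -0.09, so Satb1 RNA did not read higher on the array that bears its name. The sources used here do not say whether these probe sets lie inside the transduced sequence. Directions below therefore follow the array labels alone, and exchanged labels would turn every one of them, which the files do not settle.

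Elane, Prtn3 and Ctsg encode related serine proteases and read higher, alike and lower in that order on the array labelled Satb1, so the 250 bases before each transcription start are shown, from RefSeq on the build GRCm38.p6, 5′ to 3′ on the strand of the gene. Capitals mark AGGAAGT, a motif of the ETS family that includes PU.1, and AACNG, a Myb motif, on either strand. The Elane stretch lies at chr10:79886062-79886311 on the plus strand, that of Prtn3 at chr10:79879417-79879666 on the plus strand and that of Ctsg at chr14:56102575-56102824 on the minus strand.
Elane: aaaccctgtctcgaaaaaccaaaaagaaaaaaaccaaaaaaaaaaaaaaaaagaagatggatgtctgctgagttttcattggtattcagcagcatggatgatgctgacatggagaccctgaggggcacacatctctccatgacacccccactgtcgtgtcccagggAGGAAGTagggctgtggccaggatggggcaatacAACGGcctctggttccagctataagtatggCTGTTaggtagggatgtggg
Prtn3: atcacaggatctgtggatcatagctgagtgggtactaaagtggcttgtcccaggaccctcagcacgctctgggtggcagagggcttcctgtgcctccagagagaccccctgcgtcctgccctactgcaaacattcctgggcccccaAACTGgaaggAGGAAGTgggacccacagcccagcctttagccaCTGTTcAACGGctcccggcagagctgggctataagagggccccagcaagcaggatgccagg
Ctsg: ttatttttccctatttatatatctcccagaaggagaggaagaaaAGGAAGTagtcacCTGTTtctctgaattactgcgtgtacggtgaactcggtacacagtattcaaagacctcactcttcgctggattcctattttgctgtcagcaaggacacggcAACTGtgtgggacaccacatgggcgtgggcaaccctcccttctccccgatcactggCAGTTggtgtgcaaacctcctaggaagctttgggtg
The Elane stretch holds AGGAAGT from 84 to 78 bases before the start and AACGG from 50 to 46. In Prtn3 the same letters stand at 94 to 88 and at 55 to 51. In Ctsg AGGAAGT stands farther out, from 206 to 200 bases, and AACNG occurs in 3 places. The motifs do not overlap each other in these stretches. Of 32851 RefSeq upstream windows of this length, 7.69% hold AGGAAGT, 74.2% hold AACNG and 5.97% hold both. Of the 8 genes, 7 had an upstream window in the table, and 6 of them (Mpo, Elane, Prtn3, Ctsg, Ctsc and Lyz2) hold both motifs. The windows of Srgn hold AACNG only. Further motifs were searched on both strands: GCAAT, part of a C/EBP site, found in 23.1% of all windows, TGTGGT, a RUNX motif found in 14.0%, and TATAA, the TATA box, found in 22.8%. Elane holds GCAAT from 57 to 53 bases before the start, between its AGGAAGT and AACGG, and Elane and Prtn3 hold TATAA ending 27 and 28 bases before theirs. Ctsg holds TATAA on the other strand, from 236 to 232 bases before its start, and TGTGGT from 79 to 74. Mpo also holds GCAAT, Srgn and Lyz2 hold TGTGGT, and 1 of the Srgn windows holds TATAA. The motifs were chosen with the sequences in view, so these counts are a description. Genes that read higher, lower and alike on the array labelled Satb1 are all among the 6.

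Taken as a set, the primary granule genes did not move one way. Of the 11 probe sets, 10 exceeded the floor on 1 array or more, 9 of them on each array. Among the 10, 4 were higher and 6 lower by some amount, where 47.3% of all were higher and 52.7% lower, with a median log2 difference of -0.02, against -0.02 over all 20173 probe sets with 1 gene symbol above the floor. At least 1.5-fold higher were 2 of the 10, where 2.47% of all probe sets were. The 2 were that of Elane and a dim Ctsc probe set that exceeded the floor only on the array labelled Satb1. At least 1.5-fold lower was 1 of the 10, where 4.72% of all were. None of the 10 was 2-fold apart, against 1.18% of all, although the dim Ctsc probe set was 2.16-fold higher when no floor was set. By gene, with the brightest probe set standing for each, Elane was past 1.5-fold and the other 7 genes were within it, where 1.75% of 11048 genes were higher by this much and 3.91% lower. The members were too few to set their shares apart from these. The shares and medians over all are also not matched for intensity. Among probe sets above the floor on each array, the median log2 difference was 0.04 at mean intensities over 2000 and -0.08 under 200. Most member probe sets were over 2000.

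**Figure D1:**
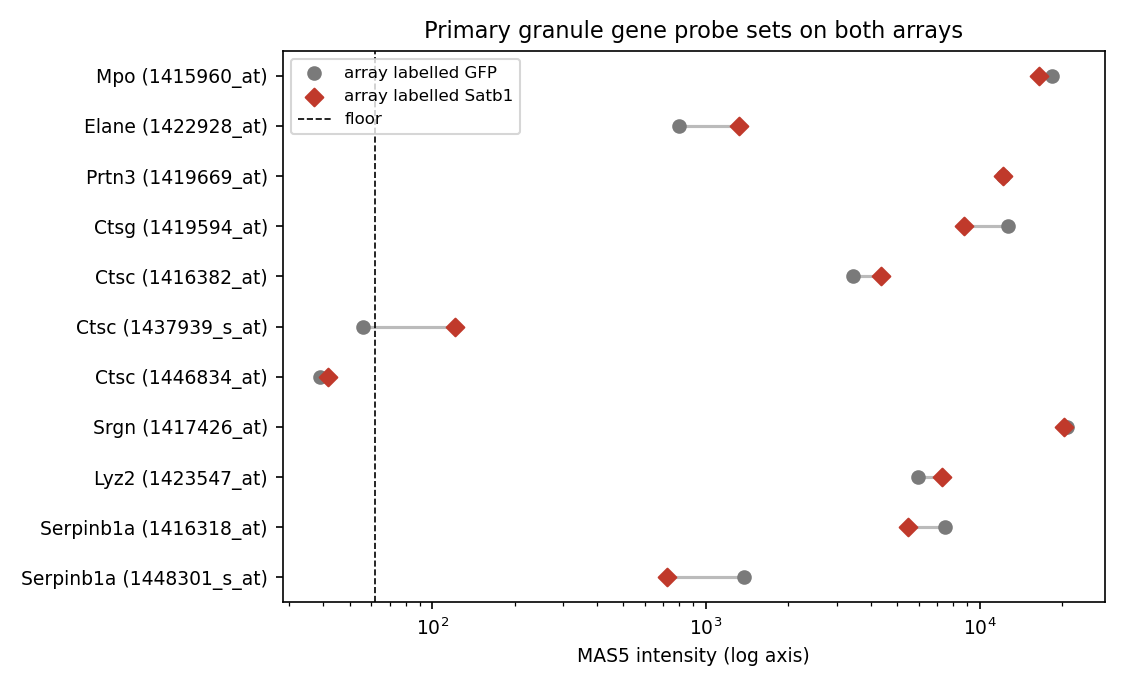
MAS5 intensity (log axis) of each primary granule gene probe set on the array labelled GFP (grey circles) and the array labelled Satb1 (red diamonds), 1 array each, with no error bars because there are no replicates. The dashed line is the floor of 61.7. Elane and the brightest Ctsc and Lyz2 probe sets lie to the right on the array labelled Satb1, Ctsg and both Serpinb1a probe sets to the left, and Prtn3 and Srgn nearly coincide.

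The only technical spread these arrays offer is that between probe sets of 1 gene. It was computed over all genes with several probe sets that exceeded the floor on each array. This within-gene SD, on the log2 scale, was 0.13 at mean intensities over 2000, 0.19 from 500 to 2000 and 0.36 under 200. It leaves out whatever the probe sets of an array share, such as the preparation of its RNA, and does not give the spread between repeat arrays. Each member is also placed below among all probe sets of its own intensity class, as a description.

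Mpo, the myeloperoxidase gene, read 18391 and 16452 in the order of labels above. The log2 difference was -0.16, or 1.12-fold lower, close to the within-gene SD of its class. In that class, 367 of 3531 probe sets (10.4%) were at least as far below. The defining enzyme of the primary granule was therefore bright in both RNAs and little apart.

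Elane, the neutrophil elastase gene, had the largest difference of any of the 8 genes by brightest probe set. It read 799 and 1320, a log2 difference of 0.72 or 1.65-fold higher on the array labelled Satb1. Of its class, 27 of the 6139 probe sets with a mean intensity from 500 to 2000 (0.44%) were at least as far above. Elane has a single probe set, so no second one can be set beside this value.

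Prtn3 encodes proteinase 3, which shares its substrates in part with elastase. On chromosome 10 it is the measured gene next to Elane on one side. It read 12209 and 12148, a log2 difference of -0.01. The sign of so small a value depends on the scaling, and after median centring it was 0.04.

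Ctsg encodes cathepsin G, the protease of this trio with chymotrypsin-like specificity. It read 12716 and 8777, a log2 difference of -0.53 or 1.45-fold lower on the array labelled Satb1. Among 3531 probe sets as bright, 27 (0.765%) were at least as far below. The differences of Elane and Ctsg thus lay 1.26 apart on the log2 scale, with that of Prtn3 between them.

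**Figure D2:**
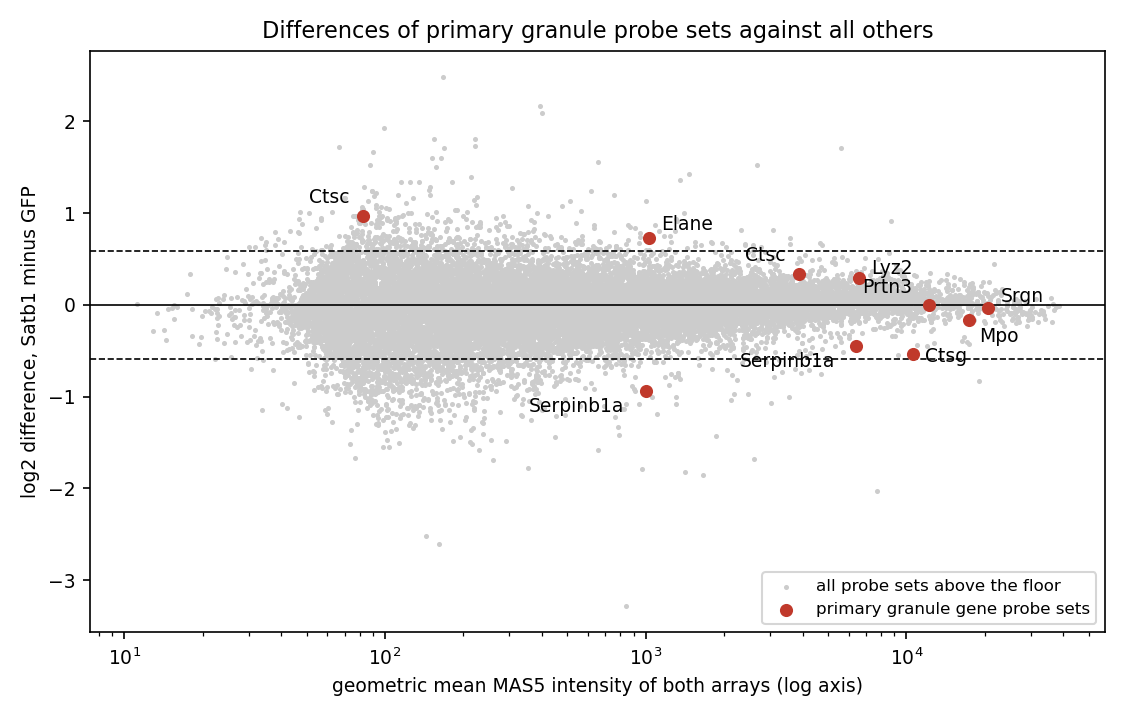
Log2 difference (Satb1 minus GFP) against the geometric mean intensity of both arrays (log axis) for all probe sets with 1 gene symbol above the floor (grey) and the 10 primary granule probe sets above it (red, named). Dashed lines are at 1.5-fold. Elane and 1 Ctsc probe set lie above the upper line, 1 Serpinb1a probe set lies below the lower line, and the other 7 lie between them.

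Ctsc encodes cathepsin C, the dipeptidyl peptidase that activates the granule serine proteases. Its brightest probe set read 3443 and 4357, a log2 difference of 0.34 or 1.27-fold higher on the array labelled Satb1, and 93 of 3531 probe sets as bright (2.63%) were at least as far above. A second one, of a kind that can match several transcripts, was dim at 55.9 and 120.9. It was at least 1.96-fold higher, as the value on the array labelled GFP is below the floor. The third was below the floor on both arrays at 38.9 and 41.7. The 2 probe sets above the floor went the same way but lay at least 0.63 apart on the log2 scale.

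Srgn encodes serglycin, the proteoglycan core on which the cationic proteases are packed. It read 20917 and 20383, a log2 difference of -0.04. After median centring the difference was 0.01, so it has no settled sign. The packing molecule and Prtn3 were the members with the smallest differences.

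Lyz2 encodes lysozyme M, which cuts bacterial cell walls and is stored in several granule types. It read 5937 and 7280, a log2 difference of 0.29 or 1.23-fold higher on the array labelled Satb1. In its class, 144 of 3531 probe sets (4.08%) were at least as far above. Lyz1 is its close relative and next neighbour on the chromosome, and signals of the pair may be shared. The brightest Lyz1 probe set, named here after its values were seen, read 11459 and 12068, a log2 difference of 0.07.

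Serpinb1a encodes a cytosolic serpin that blocks elastase, proteinase 3 and cathepsin G. Both of its probe sets were lower on the array labelled Satb1. The brighter read 7503 and 5489, a log2 difference of -0.45 or 1.37-fold lower, with 51 of 3531 probe sets (1.44%) at least as far below. The other read 1382 and 721.3, a log2 difference of -0.94 or 1.92-fold lower, with 21 of 6139 (0.342%) at least as far below. They lay 0.49 apart on the log2 scale. The second is of a kind that can match several transcripts, and whether it reads other genes was not tested. The related Serpinb1b was below the floor on both arrays, at 2.4 and 0.8, and Serpinb1c was not analysed here.

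The genes of the proteases this serpin blocks thus did not share 1 direction with Serpinb1a (-0.45 on the log2 scale). Elane (0.72) went the opposite way, Ctsg (-0.53) the same way, and Prtn3 (-0.01) hardly differed. Other inhibitors of granule proteases did not share 1 direction. Of 14 measured genes of that list, Serpinb1a included, 10 were above the floor, and 9 without Serpinb1a. Of the 10, 1 was at least 1.5-fold higher, 1 at least 1.5-fold lower and 8 were within it. Of all genes above the floor, 1.75% were higher by this much and 3.91% lower. The median of the list was 0.02, against -0.02 over all genes above the floor. Slpi, which encodes a secreted inhibitor of elastase and cathepsin G, read 3056 and 1137, 2.69-fold lower on the array labelled Satb1. Wfdc21, a gene of the same domain family, read 147 and 325, 2.21-fold higher. Cst7, the gene of cystatin F, an inhibitor of cathepsin C, was named after its values were seen and read 2995 and 2888.

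Few genes of any kind were past 1.5-fold: of all genes above the floor, 1.75% were higher by this much and 3.91% lower. Like most genes, those for activating, packing and sorting granule proteins stayed near the centre. All 21 measured genes of that list, Ctsc and Srgn included, were above the floor and within 1.5-fold, from -0.40 to 0.39 on the log2 scale, with a median of 0.02. The lowest was Gm2a, a lysosomal lipid-binding activator gene, at 3545 and 2688, and the highest Stx11, a syntaxin gene of cytotoxic granule release, at 165 and 216. The other Stx11 probe set went the other way, at 129 and 122. Besides Mpo and Lyz2, 18 further genes for contents of primary or related granules were measured, and 14 of the 15 that exceeded the floor were within 1.5-fold. The exception was Prg2, the eosinophil major basic protein gene, at 194 and 825, a 4.25-fold difference upward.

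**Figure D3:**
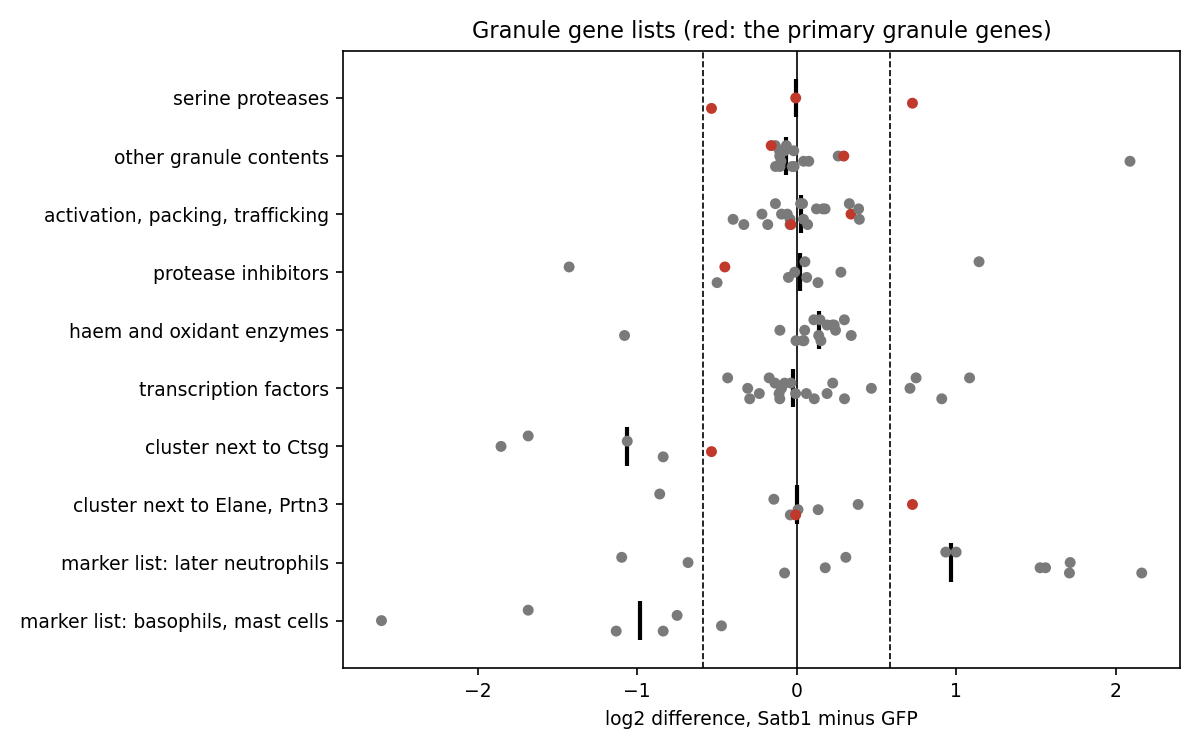
Log2 difference (Satb1 minus GFP) of each gene above the floor, by its brightest probe set, in 8 gene lists and 2 marker lists, with the 8 primary granule genes in red and the list median as a black bar. Dashed lines are at 1.5-fold. The genes of the cluster next to Ctsg and of the basophil and mast cell list all lie below 0, and most genes of the later neutrophil list lie above it.

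The protease genes sit in separate chromosomal clusters, Elane and Prtn3 on chromosome 10 and Ctsg on chromosome 14 beside mast cell protease and granzyme genes. In the cluster of Ctsg, 5 of 13 measured genes exceeded the floor. All 5 were lower on the array labelled Satb1, where 52.7% of all probe sets above the floor were. Lower by at least 1.5-fold were 4 of the 5, where 3.91% of all genes above the floor were. The median log2 difference of the 5 was -1.06. Gzmb, the granzyme B gene, read 3162 and 875, 3.61-fold lower. Mcpt8, a basophil protease gene and the nearest measured neighbour of Ctsg on one side, read 4653 and 1449, 3.21-fold lower. Gzmc read 167 and 80.0, 2.09-fold lower, and the mast cell chymase gene Cma1 read 127 and 70.9, 1.79-fold lower. Ctsg itself had the smallest difference of the 5.

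In the cluster of Elane and Prtn3, 8 of 10 measured genes were above the floor. By some amount 4 were higher and 4 lower, where 47.3% of all probe sets above the floor were higher and 52.7% lower. Past 1.5-fold were Elane and, the other way, Plppr3, a phospholipid phosphatase-related gene next to Prtn3, at 612 and 338, 1.81-fold lower. Over the 5 measured genes on each side of every member, 70 genes in all without the members, 38 were above the floor. Of these 0 were at least 1.5-fold higher and 3 at least 1.5-fold lower: Plppr3, Mcpt8 and, near Ctsc, the dim 2610206C17Rik at 105 and 27.2, at least 1.71-fold lower. Over all genes above the floor, 1.75% were at least 1.5-fold higher and 3.91% lower. The neighbours were too few to set their shares apart from these.

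**Figure D4:**
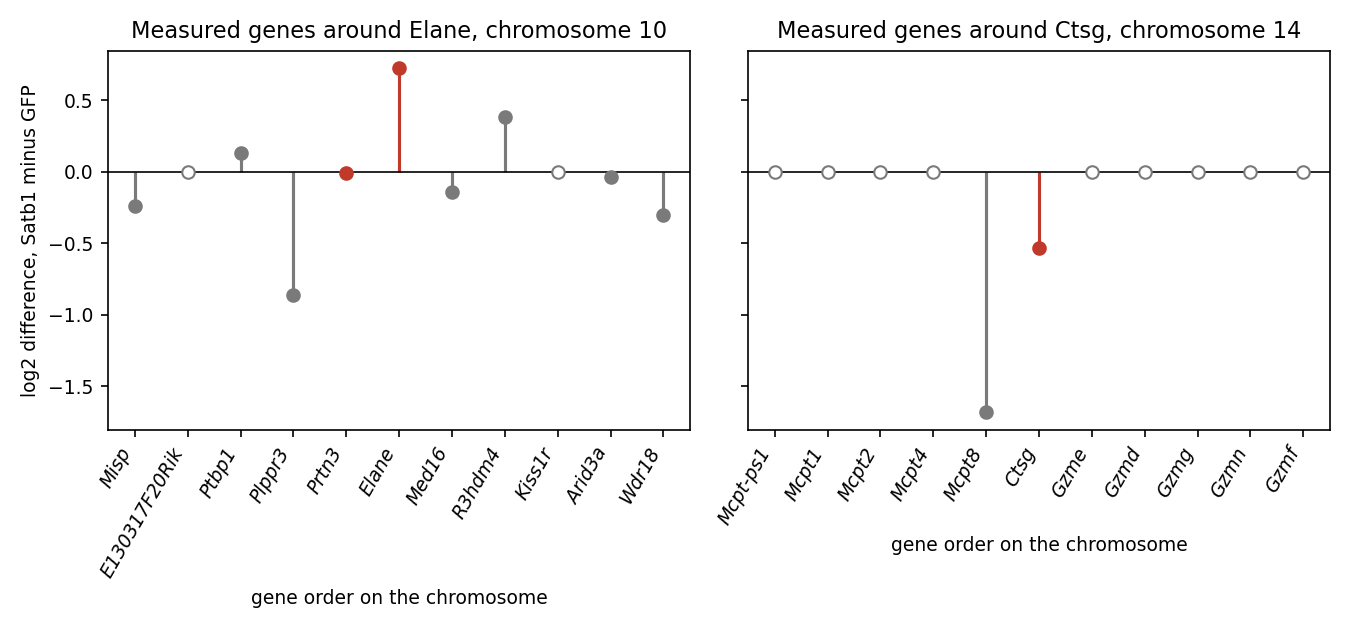
Log2 difference (Satb1 minus GFP) of the 5 measured genes on each side of Elane and of Ctsg, in chromosomal order and not to scale, with Elane, Prtn3 and Ctsg in red. Open circles are genes below the floor on both arrays, whose difference is set to 0. Elane is the highest of its panel and Plppr3 the lowest, and Mcpt8 and Ctsg are the only genes of theirs above the floor.

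Markers of other cells also differed between the arrays. Their counts past 1.5-fold stand against 1.75% of all genes above the floor higher by this much and 3.91% lower. In bulk RNA, fewer cells of a type and less RNA per cell cannot be told apart. Of 14 measured markers of later neutrophils, made after the primary granule stage, 12 were above the floor, 7 at least 1.5-fold higher and 2 at least 1.5-fold lower, and their summed intensity was 8103 for GFP and 20209 for Satb1. The highest were Camp (187 and 834), Ltf (93.2 and 306), S100a8 (3094 and 10109) and Lcn2 (381 and 1123), with Mmp9 and Orm1 below the floor. The 2 lower ones were Cxcr2 (190 and 88.8) and Chil3 (934 and 582), named after their values were seen. S100a8 and S100a9 made up 82.4% of the difference between the sums, and the other 12 genes summed to 3432 and 5561. Of the primary granule genes, Elane, Lyz2 and Ctsc read higher, Ctsg, Serpinb1a and Mpo lower, and Prtn3 and Srgn nearly alike. Of 9 measured basophil and mast cell markers, 6 were above the floor, all of them lower, where 52.7% of all probe sets above the floor were. At least 1.5-fold lower were 5 of these markers, and the summed intensity of the list was 15452 and 8491. They were led by Fcer1a (397 and 65.4), Mcpt8, Ms4a2 (1227 and 560) and Cma1, with Tpsb2, Tpsab1 and Mcpt4 below the floor. This list shares 3 genes with the cluster of Ctsg (23.1% of the cluster and 33.3% of the markers). Above the floor were 2 of these, Mcpt8 and Cma1, among 5 genes of the cluster and 6 markers. Gzmb and Gzmc, the other genes of the cluster lower by at least 1.5-fold, are not on that marker list. The part of either marker list in the values of the primary granule genes was not tested. With only 2 arrays a pattern is a single difference, so no gene is named for a pattern like that of a member.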

How the data were processed

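Biotin-labelled cRNA from total RNA of 2 samples, 1 per group, was hybridised to Affymetrix arrays. Per the submitters' processing notes, the authors made the deposited intensity values with MAS5, which gives 1 linear intensity per probe set. The sources used here do not give its version or scaling target, and detection calls were not used here. The mean without the lowest and highest 2% was 497 on both arrays.

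The platform annotation gave 1 symbol to 34945 of 45037 probe sets, more than 1 to 932 and none to 9160. Current symbols were found by Entrez ID against the RefSeq table of GRCm38.p6 (34741 matched), giving 18193 genes. A gene was read by its brightest probe set, by mean log2 over the arrays. No further normalization was applied. Differences were taken after the floor of 61.7, and a value from a floored intensity is a lower bound. The scripts (Python 3.11.15, pandas 2.3.3) were tested on simulated data. No test across samples was possible.

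The members, lists and motifs were chosen with earlier results of these data known. Named are all members, up to 4 genes per list past 1.5-fold or else the 2 furthest, neighbours past 1.5-fold, and genes marked as named after their values were seen. The alternatives were other floors, quantile normalization, median centring, means over probe sets, and leaving out probe sets that can match several transcripts. Protein sequences were not used here.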

Additional observations from a re-analysis of the deposited data

How the results depend on the processing

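The direction of Mpo, Elane, Ctsg, Ctsc, Lyz2 and Serpinb1a held under all 7 alternatives run. Most of these could not change it. Mpo, Elane, Ctsg and Lyz2 have 1 probe set each, above every floor, so only quantile normalization and median centring could move their values. For Ctsc and Serpinb1a the mean over probe sets could do so as well. By gene, the log2 difference ranged from 0.72 to 0.78 for Elane, from -0.58 to -0.48 for Ctsg, from 0.24 to 0.35 for Lyz2 and from -0.18 to -0.11 for Mpo. With the mean over probe sets, Ctsc was at 0.52 and Serpinb1a at -0.69. Median centring turned the near-zero values of Prtn3 (0.04) and Srgn (0.01). Median centring moved the median difference of all probe sets above the floor to 0.03, and quantile normalization moved it to 0.02. The number of arrays limits the precision. No paired analysis was possible because each group has 1 array, and leaving out a replicate was impossible for the same reason.

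Among member probe sets, the count at least 1.5-fold higher was 1 with a 75th percentile floor, and 1 without probe sets that can match several transcripts, under which the count lower was 0. The count at least 2-fold higher was 1 with no floor, 1 with a 25th percentile floor and 1 after quantile normalization. With the mean over probe sets, the trafficking list had 2 genes higher and 2 lower by at least 1.5-fold, the haem and oxidant list 3 higher and 2 lower, the inhibitor list 2 lower and the transcription factor list 2 lower. With no floor, the inhibitor list had 2 higher, 4 lower and a median of -0.21, the other granule contents 3 higher, the cluster next to Ctsg 3 higher and 9 lower, the cluster next to Elane and Prtn3 3 higher, and the neighbours 9 higher and 20 lower. With a floor at the 25th percentile these were 2 higher and 2 lower for the inhibitors, 3 higher for the granule contents, 2 higher for the cluster next to Elane and Prtn3, and 5 higher and 9 lower for the neighbours. With a floor at the 75th percentile, which leaves fewer genes, they were 0 higher for the inhibitors, 2 lower for the cluster next to Ctsg (median -1.68), 0 lower for the cluster next to Elane and Prtn3, and 1 lower for the neighbours. The median of the cluster next to Ctsg was -0.90 after quantile normalization and -1.37 without probe sets that can match several transcripts. Beyond the change in the number of genes above each floor, the cause was not tested.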

Other observations

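A broad list of transcription factors and related regulators of blood cells was taken, whose action at primary granule genes was not examined here. Cebpe, also on the list, was not analysed. All 22 measured genes were above the floor, with a median log2 difference of -0.02. At least 1.5-fold higher on the array labelled Satb1 were 4, and 0 were at least 1.5-fold lower. Of all genes above the floor, 1.75% were higher by this much and 3.91% lower. The 4 were Klf4 (153 and 324), a factor of monocyte differentiation, Egr1 (963 and 1806), an immediate early gene, Runx1 (960 and 1611), a core factor of blood formation, and Id2 (667 and 1090), an inhibitor of E proteins. Of the 6 Runx1 probe sets, 3 went the other way. Named after their values were seen, the PU.1 gene Spi1 read 931 and 1062, Cebpa 1989 and 1689, Myb 14846 and 13744, and Gfi1, a repressor needed for neutrophil maturation, 367 and 272.

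Genes linked to the peroxidase reaction, to haem synthesis or breakdown and to protein folding were taken as a list. Its median log2 difference was 0.14 over 16 genes above the floor, against -0.02 over all genes above it. Of the 16, 13 were higher by some amount, where 47.3% of all probe sets with 1 gene symbol above the floor were. That share covers probe sets of any intensity, not genes by their brightest, so it is not matched to this list. Among probe sets above the floor on each array, the median was 0.04 at mean intensities over 2000 and -0.08 under 200. None of the 16 genes was at least 1.5-fold higher, where 1.75% of all genes above the floor were and 3.91% were lower by this much. At least 1.5-fold lower was 1 gene, Cybb, the catalytic subunit of the phagocyte oxidase, whose superoxide is the source of the peroxide that myeloperoxidase uses. It read 1224 and 579, 2.11-fold lower, and its other 2 probe sets were lower as well (238 and 140, and 172 and 101). Among 22 genes of granulocyte and monocyte progenitors, 0 were at least 1.5-fold higher and 4 lower, against the same shares of all genes: Ms4a3 (2609 and 269), Nkg7 (2667 and 754), the G-CSF receptor gene Csf3r (1239 and 494) and Ms4a6c (596 and 387). The lower count was 3 with a 75th percentile floor, after quantile normalization, after median centring and with the mean over probe sets.

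Markers of the remaining cell types were counted by the same rule. Beside these counts, 1.75% of all genes above the floor were at least 1.5-fold higher and 3.91% lower. Of 6 monocyte and macrophage markers above the floor, 0 were past 1.5-fold, the furthest being Ccr2 (3172 and 2221, with 1 of its other probe sets the opposite way) and F13a1 (1203 and 1606). All 6 measured megakaryocyte markers were above the floor and higher by some amount, where 47.3% of all probe sets above the floor were. Past 1.5-fold were 2 of the markers: Ppbp (1753 and 3075) and Gp1bb (292 and 489, with its other probe set the opposite way). The other megakaryocyte markers were at most 1.10-fold higher. Of 2 erythroid markers above the floor, Klf1 was past 1.5-fold (87.1 and 138). Of 2 T and NK cell markers above it, Cd8a was (88.9 and 148), by 1 of 5 probe sets, with the other 4 under the floor. Of 3 B cell markers above it, 0 were, the furthest being Blk (75 and 34.5) and Cd79b (412 and 352). Of 2 eosinophil markers above it, Prg2 was higher, as given for the granule contents.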
